A study of Homo sapiens with 36 samples.

Results

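Small nucleolar RNA host genes are the transcripts from which many small nucleolar RNAs (snoRNAs) are cut, and they were followed here through actinomycin D treatment of a Wilms tumor cell line. The members were every gene whose GENCODE 29 symbol is SNHG followed by a number, plus GAS5, ZFAS1, DANCR and EPB41L4A-AS1. This gave 29 gene identifiers with 28 symbols, of 58174 genes listed in the RNA data and 43548 listed in the ribosome footprint data. SNHG28 occurs under 2 identifiers, a lincRNA and a protein-coding gene with almost no counts. The other SNHG members are SNHG1, SNHG3 to SNHG12, SNHG14 to SNHG22 and SNHG25 to SNHG27. SNHG27 was listed at 0 in every library.

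Most snoRNAs of vertebrates lie in introns and are released when the host transcript is spliced and the intron is trimmed. Box C/D snoRNAs guide the methylation of ribosomal RNA and box H/ACA snoRNAs guide its pseudouridylation, both together with a small set of core proteins. Several host genes start, like ribosomal protein genes, with a C followed by a run of pyrimidines, the terminal oligopyrimidine (TOP) start, which ties translation of an mRNA to growth signals. Their spliced RNAs mostly lack a long reading frame. Ribosomes load onto short frames near the start of GAS5 and of other hosts, and nonsense-mediated decay then removes the RNA, so these RNAs are known to accumulate when translation is blocked. GAS5 was named for its rise in growth-arrested cells.

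The cells were WiT49, an established line from an anaplastic Wilms tumor, a childhood kidney cancer, and all results therefore come from 1 line. They received 2 nM actinomycin D (actD), which binds DNA and at low dose mainly stops RNA polymerase I, or the vehicle dimethyl sulfoxide (DMSO). Cells were taken after 6 h, after 72 h, or after 2 weeks, the last as 2 cycles of 7 days with drug or vehicle for 3 days and plain medium for 4 days. Total RNA and ribosome footprints, the fragments that ribosomes shield from nuclease, were sequenced in 3 libraries for each treatment and time, 36 libraries in all. Nothing in the labels says that the libraries of a group came from separate cultures, so p-values measure the spread between these libraries, which may be technical. For RNA at 2 weeks the title of each library contradicts its name in the table. The table's names are used here ("named actd", "named dmso"), and the sign of every 2-week RNA difference below holds for that naming only.

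RNA libraries held 40221994 to 69240041 counts and footprint libraries 152556 to 1281039, so a footprint value rests on far fewer counts. Counts in protein-coding genes made up 52.9% to 76.3% of an RNA library and 2.12% to 40.4% of a footprint library. RNA levels are given in CPM, which are counts after TMM factors have put the libraries on 1 scale. The 29 host identifiers took 0.0726% to 0.189% of the RNA counts. Among markers of Wilms tumor and nephron progenitors, WT1, SALL2, IGF2 and NCAM1 were above 1 CPM in every RNA library. Another 7 (SIX2, CITED1, EYA1, PAX2, PAX8, SALL1 and HOXD11) were under it in every one. All 4 leukocyte and all 3 erythroid markers also stayed under it, and of 3 endothelial markers VWF reached at most 1.16. Fold changes are edgeR quasi-likelihood estimates with their standard error (SE). "Called" means an adjusted p under 0.05 over all genes tested. In bulk RNA, fewer cells of a type and less RNA per cell cannot be told apart.

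The first transcribed bases of the hosts are shown because the TOP start is the sequence feature that the family is best known for. Each line gives 20 bases before and 40 bases from the RefSeq start (GRCh38), read on the strand of the gene, with the run of C and T that begins at the first transcribed base in capitals. ZFAS1, which runs antisense to ZNFX1, SNHG5 and SNHG12 have a C followed by at least 4 pyrimidines:
ZFAS1 (chr20:49278622-49278681, + strand): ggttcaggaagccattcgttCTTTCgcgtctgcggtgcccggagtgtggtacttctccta
SNHG5 (chr6:85678694-85678753, - strand): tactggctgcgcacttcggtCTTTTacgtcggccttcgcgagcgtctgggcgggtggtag
SNHG12 (chr1:28581834-28581893, - strand): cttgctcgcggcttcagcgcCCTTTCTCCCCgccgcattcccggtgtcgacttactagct
SNHG1 begins with a shorter run, and EPB41L4A-AS1, DANCR and SNHG20 with at most 1 pyrimidine:
SNHG1 (chr11:62855846-62855905, - strand): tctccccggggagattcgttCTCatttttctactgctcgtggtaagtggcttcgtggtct
EPB41L4A-AS1 (chr5:112160506-112160565, + strand): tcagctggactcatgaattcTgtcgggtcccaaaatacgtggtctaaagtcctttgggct
DANCR (chr4:52712374-52712433, + strand): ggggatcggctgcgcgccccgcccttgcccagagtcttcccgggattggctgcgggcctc
SNHG20 (chr17:77088623-77088682, + strand): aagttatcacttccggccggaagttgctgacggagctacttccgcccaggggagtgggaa
The RefSeq entry of GAS5 starts upstream of its GENCODE transcripts. In GENCODE 29, 6 of the 29 GAS5 transcripts share a pyrimidine start, shown by their first 40 bases:
GAS5 (chr1:173867950-173867989, - strand): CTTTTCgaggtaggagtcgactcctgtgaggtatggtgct
Of the 24 hosts with a RefSeq start, 6 (ZFAS1, SNHG4, SNHG5, SNHG12, SNHG18 and SNHG19) had the C and 4 pyrimidines, 25% against 4.07% of all 35116 RefSeq starts. Over GENCODE transcripts the share was 12.8% of 258 host starts against 2.41% of all 206694. In either table, 14 host identifiers had such a start. A match describes the annotated base only and does not show that transcription begins there.

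In vehicle-treated cells the members spanned more than 2 orders of magnitude in RNA. Per kilobase of the median transcript length, the 6 h vehicle level was 143 ± 43.2 CPM (SD, n = 3) for SNHG16, 119 ± 11.5 for ZFAS1, 117 ± 13.1 for GAS5 and 91.1 ± 3.31 for SNHG5. SNHG1 followed at 74.2 ± 6.83 and SNHG15 at 69.5 ± 11. EPB41L4A-AS1 lay at 23.3 ± 2.58 and DANCR at 20.1 ± 14.5. SNHG20 (1.86 ± 0.444), SNHG22 (1.41 ± 0.184) and SNHG14 (0.679 ± 0.132) were the lowest of those tested, beside SNHG28 at 0.722 ± 0.213. SNHG16, ZFAS1 and GAS5 could not be ordered, since the libraries of neighbours overlapped, whereas GAS5, SNHG5 and SNHG1 did not overlap in that order. With the length of all exons in place of the median transcript, GAS5 was at rank 5 and SNHG3 at rank 3. Without such scaling, 11 identifiers were above 10 CPM in every RNA library, and 27 passed the filter on low counts in RNA at each time.

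No host gene was called in RNA at 72 h, where the background was 1 gene of 21195 (0.00472%), a gene that fell. The fold change was above 0 for 18 of the 27 hosts and below 0 for 9. The median host difference was 0.31 on the log2 scale, against 0.02 over all genes tested. The 72 h difference reached an unadjusted p under 0.05 for 3 hosts, SNHG9, SNHG3 and SNHG12, all in the higher direction, beside 13.1% of all genes in either direction. All 3 actD libraries lay above all 3 vehicle libraries for 5 hosts (SNHG1, SNHG3, SNHG9, SNHG11 and SNHG12), where 10.5% of all genes did so. None lay wholly below, where 10.3% of all genes did. Mitochondrial ribosomal RNA took 24.6% to 32.3% of the counts in the actD libraries and 15.5% to 22.5% in the vehicle libraries at 72 h, without overlap, and its part in the host differences was not tested. The plot of RNA in each library shows these groups beside those of the other named hosts.

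**Figure D1:**
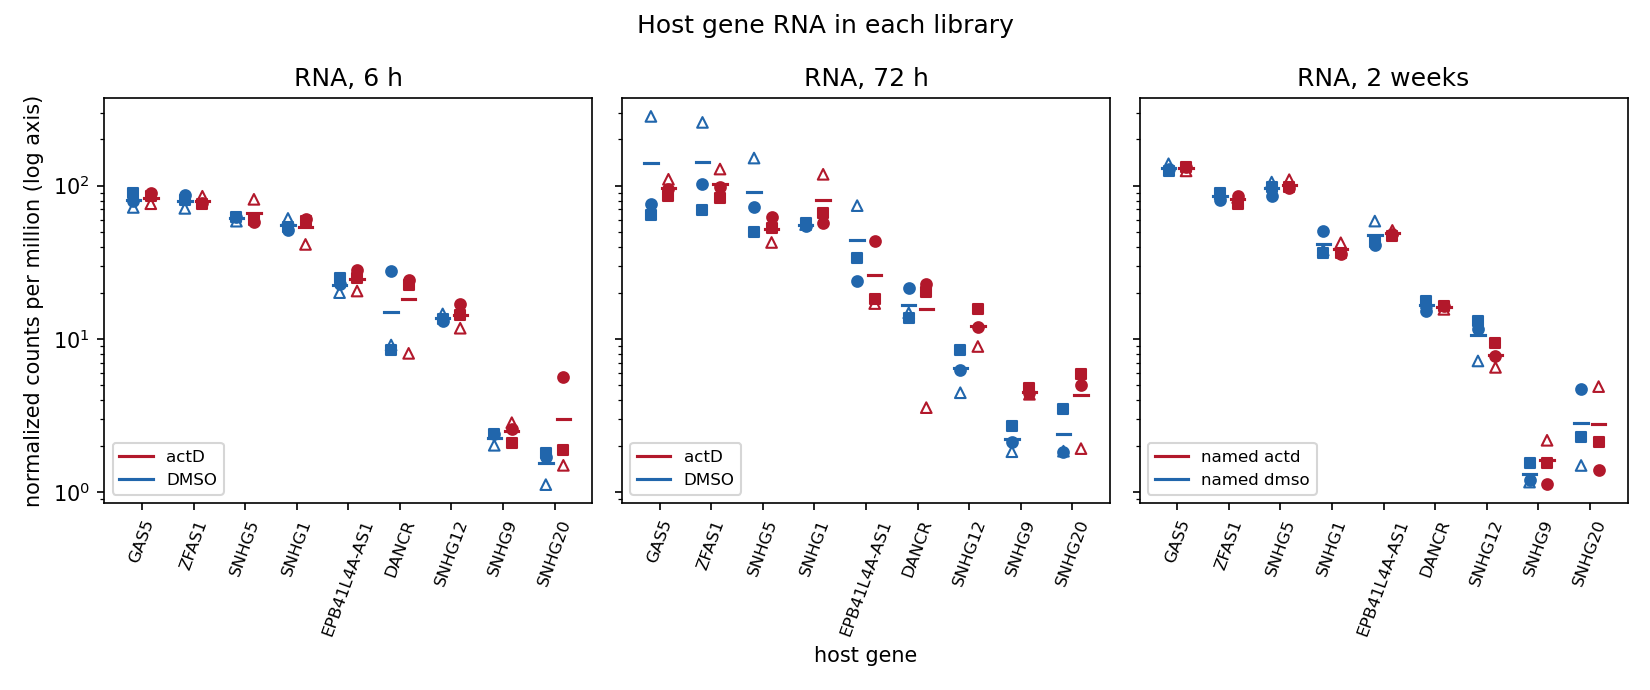
RNA of named host genes in each library (vertical axis, normalized counts in CPM, log axis) at 6 h, 72 h and 2 weeks. Circles, squares and triangles are replicates 1, 2 and 3, red marks actD (or named actd) and blue DMSO (or named dmso), and the line is the group mean. At 72 h the blue triangle stands above the other vehicle libraries for GAS5 (283 against 64.1 and 75.5), ZFAS1, SNHG5 and EPB41L4A-AS1.

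SNHG9 is a short lincRNA on chromosome 16 (1964959 to 1965509, + strand, GRCh38) whose exon holds SNORA78. Its RNA at 72 h was 4.47, 4.77 and 4.36 CPM in the actD libraries and 2.14, 2.7 and 1.84 CPM in the vehicle libraries. The groups did not overlap and each was narrow. The log2 difference was 1.03 (SE 0.26, edgeR adjusted p = 0.263), which does not pass the threshold. SNHG9 was called by DESeq2 (1.02, adjusted p = 0.017), which called 2.85% of all genes, and by 1 edgeR fit over the 3 times (1.05, adjusted p = 0.0229), which called 4.89%.

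SNHG12, antisense on chromosome 1 (28578538 to 28583132, - strand), holds SNORD99, SNORA61, SNORA44 and SNORA16A. It measured 11.9, 15.6 and 8.93 CPM with actD and 6.27, 8.54 and 4.46 CPM with vehicle at 72 h. Replicate 3 was the lowest of each group, and the groups narrowly missed each other. The log2 difference was 0.92 (SE 0.32, adjusted p = 0.321), and in the fit over the 3 times it was called at 0.95 (adjusted p = 0.0487). SNHG3, the host of SNORA73A and SNORA73B, measured 147, 136 and 152 CPM with actD and 84.9, 92.4 and 107.9 CPM with vehicle. Its groups were separate, with a log2 difference of 0.61 (SE 0.18, adjusted p = 0.281). SNHG3 shares exon sequence with RCC1 on the same strand, so reads of the 2 genes may have been split by the authors' counting.

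SNHG1, which carries 7 snoRNA genes annotated in GENCODE, read 57.5, 65.9 and 119 CPM with actD and 54.2, 56.8 and 55.7 CPM with vehicle at 72 h. The vehicle libraries were almost equal and actD replicate 3 stood far above the rest. The log2 difference was 0.54 (SE 0.29, adjusted p = 0.477). SNHG20, the host of a Cajal body RNA on chromosome 17, read 5.02, 5.9 and 1.93 CPM with actD against 1.84, 3.52 and 1.85 CPM. Here actD replicate 3 sat among the vehicle libraries, and the difference was 0.83 (SE 0.48, adjusted p = 0.498). SNHG20 shares exon sequence with SEC14L1 on the same strand.

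Several hosts whose 72 h difference was below 0 had their highest value in 1 vehicle library. GAS5 measured 94.5, 85.4 and 110 CPM with actD and 75.5, 64.1 and 283 CPM with vehicle. ZFAS1 measured 97.8, 83.1 and 128 CPM with actD and 103, 69.3 and 259 CPM with vehicle. For both genes DMSO replicate 3 was the highest of the 6 libraries and the groups overlapped, with differences of −0.54 (SE 0.54, adjusted p = 0.692) for GAS5 and −0.48 (SE 0.47, adjusted p = 0.686) for ZFAS1.

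SNHG5, the host of SNORD50A and SNORD50B, read 62.1, 52.7 and 42.6 CPM with actD and 72.7, 50.2 and 151 CPM with vehicle at 72 h, a difference of −0.80 (SE 0.40, adjusted p = 0.445). EPB41L4A-AS1, which starts opposite EPB41L4A, read 43.3, 18.1 and 17 CPM with actD and 24, 33.8 and 74.1 CPM with vehicle, a difference of −0.75 (SE 0.51, adjusted p = 0.561). The groups of both overlapped. DANCR, known for holding back differentiation in progenitor cells, read 22.9, 20.4 and 3.57 CPM with actD against 21.7, 13.7 and 14.8 CPM. Its highest and its lowest library were both actD libraries, and its 72 h actD group spread 6.43 times from lowest to highest, the widest among hosts with a mean of at least 50 counts in the comparison.

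DMSO replicate 3 at 72 h was the highest of the 6 RNA libraries for 9 of the 27 hosts (33.3%, against 23.7% of all genes tested) and the lowest for 5 (18.5%, against 22.4%). Relative to the mean of the other 2 vehicle libraries it held 4.85 times as much SNHG28, 4.05 times as much GAS5, 3.29 times as much SNHG7, 3.01 times as much ZFAS1, 2.56 times as much EPB41L4A-AS1 and 2.46 times as much SNHG5. SNHG17 lay at 0.445 times. The host identifiers together took 0.189% of its counts and 0.0775% to 0.129% of those of the other 5 libraries. The snoRNA genes inside hosts, 33934 counts against 4160 to 12304, and 27 protein-coding snoRNA hosts with TOP starts, 27794 CPM against 14073 to 16529, were also highest in this library. The part these differences play in the host results was not tested.

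Without DMSO replicate 3, the 72 h difference was above 0 for 21 hosts and below 0 for 6, and the host median was 0.35 against 0.06 over all 21854 genes tested. Again no host was called. GAS5 changed sign to 0.46 (adjusted p = 0.304) and ZFAS1 to 0.26, while SNHG5 moved to −0.23 and EPB41L4A-AS1 to −0.15. SNHG7, which is transcribed antisense to a neighbouring gene and holds the SNORA17 genes, read 32.9, 31.5 and 35.9 CPM with actD and 10.8, 12.3 and 37.9 CPM with vehicle, and moved from 0.71 to 1.53 (adjusted p = 0.0838). SNHG9 kept a difference of 0.90, SNHG12 of 0.71, SNHG3 of 0.71 and SNHG1 of 0.53.

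**Figure D2:**
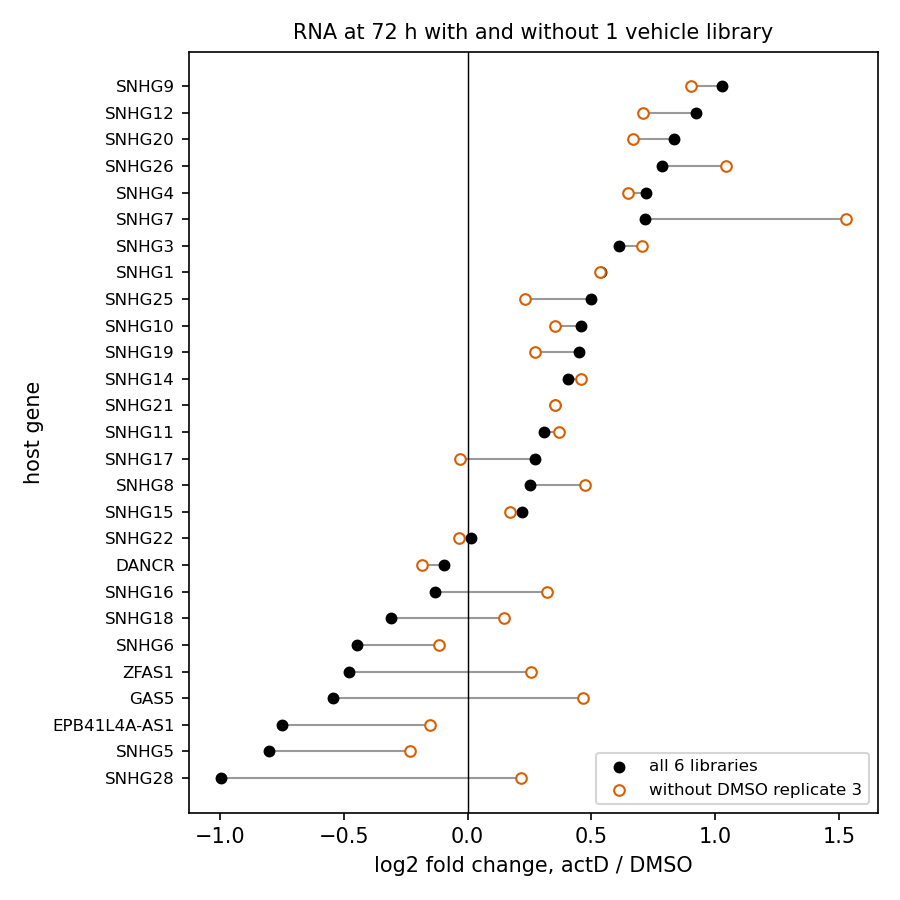
Log2 difference of RNA between actD and DMSO at 72 h (horizontal axis) for the 27 hosts tested (vertical axis), from all 6 libraries (filled) and without DMSO replicate 3 (open). GAS5 moves from −0.54 to 0.46 and SNHG7 from 0.71 to 1.53, whereas SNHG1 and SNHG9 move little.

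At 6 h no host gene was called in RNA, and neither was any of the 22669 genes tested (0%). No host had an unadjusted p under 0.05, against 8.21% of all genes, and DESeq2 called 204 genes but no host, with 1 at an unadjusted p under 0.05. The differences were above 0 for 15 hosts and below 0 for 12, with a median of 0.01 against 0.02 over all genes and a range from −0.46 to 0.96. GAS5 read 89.6, 85.1 and 76.2 CPM with actD and 79.7, 90.1 and 72.1 CPM with vehicle, so the groups covered nearly the same range and differed by 0.05 (SE 0.13, adjusted p = 0.953). ZFAS1 read 77, 76.4 and 85.3 CPM with actD and 86.3, 80.1 and 71.1 CPM with vehicle, a difference of 0.01 (SE 0.12).

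SNHG1 at 6 h read 60.7, 58.5 and 41.4 CPM with actD and 51.2, 54.1 and 61.1 CPM with vehicle, and EPB41L4A-AS1 read 28, 24.9 and 20.5 CPM against 22.7, 25.1 and 20.1 CPM. Both pairs of groups overlapped. DANCR split both groups, with 24.3, 22.6 and 8.06 CPM under actD and 27.6, 8.47 and 9.13 CPM under vehicle. SNHG20 had the largest difference, 0.96 (SE 0.49, adjusted p = 0.664), from 5.61, 1.89 and 1.5 CPM with actD and 1.7, 1.8 and 1.12 CPM with vehicle. It rests on actD replicate 1, the other 2 actD libraries lying among or near the vehicle ones. SNHG22 was the 1 host whose 6 h groups did not overlap, 0.633, 0.682 and 0.75 CPM with actD and 0.834, 1.07 and 0.888 CPM with vehicle (−0.43, SE 0.26, adjusted p = 0.72). All-gene shares for such separation were 7.66% higher and 8.17% lower. SNHG25, the host of SNORD104, read 1.46, 1.62 and 1.19 CPM against 2.36, 1.58 and 1.95 CPM (−0.46, SE 0.24, adjusted p = 0.672), with actD replicate 2 just above the lowest vehicle library.

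At 2 weeks no host gene and none of the 21137 genes tested (0%) was called in RNA, and the 27 hosts divided into 11 above 0 and 16 below 0, with a median of −0.05 against −0.02 over all genes. DESeq2 called 197 genes and no host. Mitochondrial ribosomal RNA was again separate, at 25.8% to 31.2% in the libraries named actd and 19.6% to 22.9% in those named dmso. An unadjusted p under 0.05 was reached by 2 hosts in edgeR and 2 in DESeq2, beside 8.93% of all genes in edgeR. SNHG7 read 38.6, 40.6 and 40.9 CPM in the libraries named actd and 49.9, 50.5 and 50.3 CPM in those named dmso, a difference of −0.33 (SE 0.095, adjusted p = 0.433) between narrow groups. SNHG19, the host of SNORD60, read 2.6, 2.55 and 1.87 CPM against 3.86, 3.4 and 2.99 CPM (−0.55, SE 0.21, adjusted p = 0.521). Separate groups were seen for 4 hosts in the lower direction (SNHG7, SNHG8, SNHG19 and SNHG25, background 7.83%) and for SNHG28 in the higher direction (background 7.86%), with 1.73, 1.61 and 1.5 CPM against 1.2, 1.25 and 0.563 CPM (0.68, SE 0.33, adjusted p = 0.593).

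The other named hosts overlapped between the 2-week RNA groups. GAS5 read 133, 132 and 125 CPM in libraries named actd and 129, 125 and 139 CPM in those named dmso. ZFAS1 read 85.9, 75.7 and 83.6 CPM against 80.2, 89.1 and 88.7 CPM, and SNHG1 read 36, 36.6 and 42.4 CPM against 50.4, 36.3 and 38 CPM. These 3 genes differed by at most 0.12 in size on the log2 scale. EPB41L4A-AS1 read 48.7, 46.9 and 51.1 CPM against 41.1, 42.6 and 58.7 CPM, and DANCR 16.4, 16.5 and 15.6 CPM against 15.2, 17.7 and 17.2 CPM, so that DANCR was even across all 6 libraries here. SNHG12 read 7.74, 9.41 and 6.53 CPM against 11.5, 13 and 7.19 CPM (−0.42, SE 0.24, adjusted p = 0.64). SNHG16, the most abundant host, read 307, 178 and 332 CPM against 233, 686 and 344 CPM (−0.63, SE 0.39, adjusted p = 0.669), its extremes being the replicate 2 libraries of the 2 groups.

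**Figure D3:**
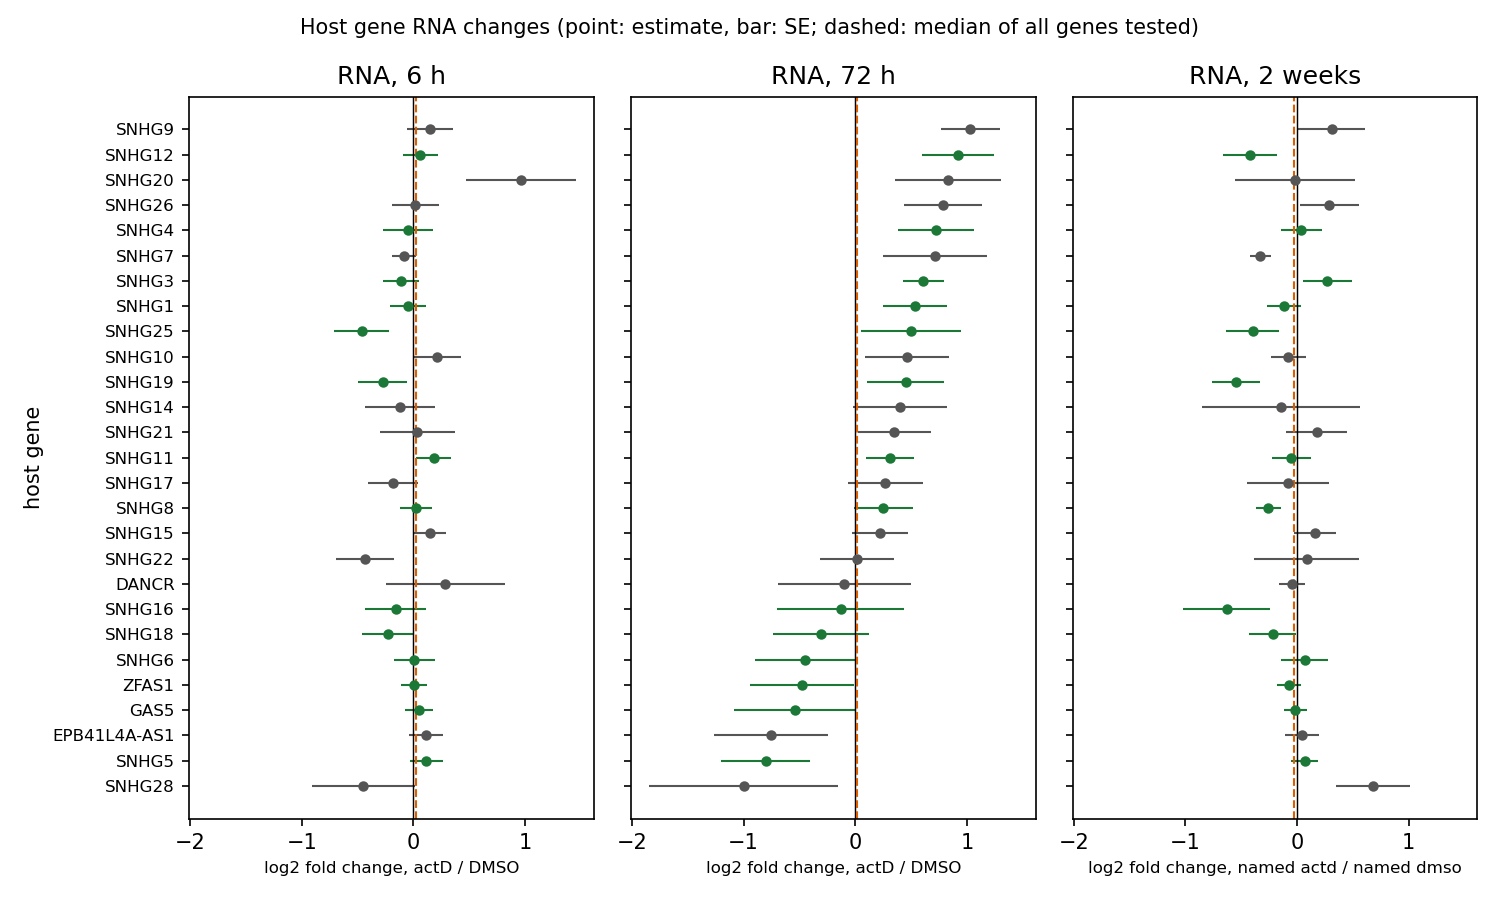
Log2 difference of RNA with its standard error (horizontal axis) for the 27 hosts tested (vertical axis) at 6 h, 72 h and 2 weeks, green where the RefSeq start or a GENCODE transcript has a C and 4 pyrimidines and grey where none has. The dashed line is the median of all genes tested, and at 72 h 18 hosts lie above 0 with both colours on either side.

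Split by a pyrimidine start in either annotation, hosts of both groups lay on either side of 0 at 72 h. A host counts as having such a start if its RefSeq start or any GENCODE transcript matches, as 1 of 25 does for SNHG1. In RefSeq 6 hosts match, and these were not compared with the rest. At 72 h the 14 hosts with a pyrimidine start had a median RNA difference of 0.28, 8 above 0 and 6 below. The 13 tested hosts without one had a median of 0.35, 10 above 0 and 3 below. The medians with and without were −0.02 and 0.04 at 6 h, and −0.09 and 0.04 at 2 weeks. SNHG5, SNHG12 and ZFAS1, whose starts are printed above, ranged from −0.80 to 0.92 at 72 h.

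The effect of actD on RNA was also compared between 72 h and 6 h directly, as the difference of the 2 fold changes. No host was called, where 4 of 24251 genes (0.0165%) were. The difference of effects was above 0 for 18 hosts and below 0 for 9, with a median of 0.23 against −0.03 over all genes. It reached an unadjusted p under 0.05, as 8.02% of all genes did, for SNHG3 (0.71, adjusted p = 0.523), SNHG9 (0.86, adjusted p = 0.551) and SNHG12 (0.84, adjusted p = 0.607). Without DMSO replicate 3 of 72 h, SNHG7 was called in this test, 1 of the 14 of 25098 genes (0.0558%) called there. RNA at 2 weeks did not enter this test, given the contradiction in its labels.

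The spread between libraries of 1 group was wide for the hosts at 72 h. The ratio of the highest to the lowest library had a median of 1.95 over the hosts against 1.4 over all genes in the actD group, and 1.91 against 1.58 in the vehicle group. At 6 h the medians were 1.4 against 1.28 with actD and 1.28 against 1.28 with vehicle. Among hosts with a mean of at least 50 counts, the widest single groups after DANCR were GAS5 (4.41), SNHG16 (3.93), SNHG20 (3.74), ZFAS1 (3.73) and SNHG7 (3.52), whereas SNHG11 never exceeded 1.48.

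The snoRNAs of SNHG3 and SNHG10 were set beside their hosts, a choice made with these values already known. At 6 h SNORA73B, in an SNHG3 intron, had 5128, 3948 and 5894 counts with actD and 2397, 2198 and 2238 with vehicle (1.21, SE 0.17, adjusted p = 0.0982), while SNHG3 read 127, 126 and 85.1 CPM against 123, 125 and 117 CPM (−0.11, SE 0.16, adjusted p = 0.913). The snoRNA groups were well apart and the host groups overlapped. SNORA73A had 8041, 5844 and 11528 counts against 4643, 3968 and 2979 (1.22, SE 0.28, adjusted p = 0.336), and neither snoRNA was called. Over all 31 snoRNA genes inside hosts that were tested at 6 h, 17 lay above 0 and 14 below, with a median of 0.03, and SNORA73A was the highest of them. Of the 31, 9 had actD libraries wholly above vehicle, where 7.66% of all genes did, and 2 wholly below, where 8.17% did. An unadjusted p under 0.05 in edgeR was reached by 6 in the higher direction and 1 in the lower, beside 8.21% of all genes in either. SNORA73A and SNORA73B are close copies of each other, so reads could be shared between them.

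At 72 h SNHG3 was separate between the groups while its snoRNAs were not. SNORA73A read 89.6, 98.4 and 101 CPM with actD and 63.9, 27.8 and 285 CPM with vehicle, the last again being DMSO replicate 3. At 2 weeks SNHG3 was highest in replicate 2 of the libraries named actd, at 113 CPM, and SNORA73A was lowest in that same library, at 9 counts. SNORA73A lies in an annotated exon of 1 SNHG3 transcript, so a count for SNHG3 can include its reads. Whether reads were assigned differently in that library was not tested. SCARNA13, in an intron of SNHG10, lay at −0.57 at 6 h (SE 0.14, adjusted p = 0.409) and at −1.05 at 72 h (SE 0.35, adjusted p = 0.305), and SNHG10 itself was at 0.21 and 0.46. None of these 4 differences passed the threshold. At 72 h SCARNA13 read 8.8, 7.9 and 8 CPM with actD and 12.5, 11.7 and 27.2 CPM with vehicle, the last also being DMSO replicate 3.

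**Figure D4:**
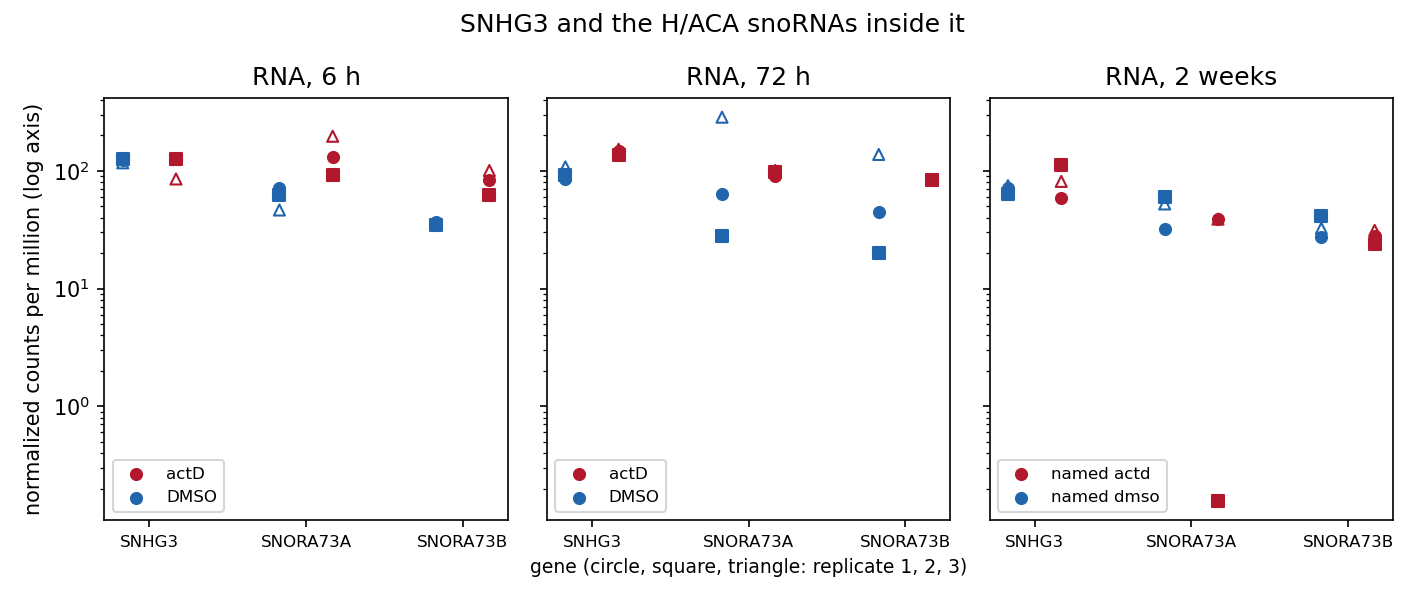
SNHG3 and the 2 snoRNAs inside it in each RNA library (vertical axis, normalized counts in CPM, log axis) at 6 h, 72 h and 2 weeks, with red for actD (or named actd), blue for DMSO (or named dmso) and symbols for replicates 1 to 3. At 6 h the snoRNA groups are apart and the host groups overlap, and at 2 weeks 1 library holds 9 counts of SNORA73A.

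GAS5 was the 1 host with many counts in the footprint libraries, and its snoRNAs are printed here because they are inside the GAS5 gene but have no gene of their own name in GENCODE 29. RefSeq places 11 snoRNAs in GAS5 (chr1:173863900-173868882, - strand, GRCh38). Of these, 8 lie within an exon of at least 1 GENCODE transcript of GAS5, so a count for GAS5 can include them. The sequences below are 4 of the 5 that carry both a box C (TGATGA in the first 20 bases) and a box D (CTGA in the last 20 bases), on the GAS5 strand and with the boxes in capitals:
SNORD81 (chr1:173864146-173864222): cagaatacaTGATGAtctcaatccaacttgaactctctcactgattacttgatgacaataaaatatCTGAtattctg
SNORD80 (chr1:173864833-173864903): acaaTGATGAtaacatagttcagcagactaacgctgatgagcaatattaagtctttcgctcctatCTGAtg
SNORD44 (chr1:173865968-173866028): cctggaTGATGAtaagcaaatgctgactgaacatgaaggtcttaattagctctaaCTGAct
SNORD76 (chr1:173866635-173866715): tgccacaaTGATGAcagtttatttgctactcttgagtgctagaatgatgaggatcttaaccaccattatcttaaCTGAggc
Searched the same way on their own strand, 64.9% of 288 GENCODE genes named SNORD had both boxes, and 0.0904% of 14378 lincRNA transcripts did in their first 70 bases. RefSeq alone also places SNORD29 and SNORD31 in exons of SNHG1 and SNORD50A in an exon of SNHG5.

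At 6 h the GAS5 footprint counts were 1478, 364 and 602 with actD and 258, 578 and 29 with vehicle. As CPM of the library total, without TMM scaling, the actD libraries were at 1150, 831 and 1660 and the vehicle libraries at 540, 829 and 62.1. Every actD library lay above every vehicle library, though actD replicate 2 and DMSO replicate 2 were almost equal, and DMSO replicate 3 was far below the rest. The log2 difference was 2.30 (SE 1.11, adjusted p = 0.889) and GAS5 was not called, and neither was any of the 1212 genes tested (0%; unadjusted p under 0.05 for 3.14%). DESeq2 called 12 genes there and no host. Of all genes, 3.71% had actD libraries wholly above vehicle. Scaled by library totals alone, the difference was 1.29. MicroRNA genes took 71.4%, 58.5% and 16.1% of the counts of the 6 h actD footprint libraries and 4.67%, 45.1% and 60.8% of the vehicle ones. The part of these shares in the GAS5 difference was not tested.

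At 72 h GAS5 had 17, 13 and 3029 footprint counts with actD and 3, 2 and 4 with vehicle. ActD replicate 3 alone held nearly all of them, 4360 CPM of the library total against 6.8 to 31.2 in the other 5 libraries. GAS5 was not called in the fit (6.37, SE 2.20, adjusted p = 0.119), where 3.79% of 2426 genes were. Without actD replicate 3 the difference was 1.42 (adjusted p = 0.198). After TMM scaling DMSO replicate 3 reached 49.7 CPM and the 2 groups overlapped, whereas 19.5% of all genes had actD libraries wholly above vehicle. With no filter on low counts GAS5 was called (6.61, adjusted p = 0.000865), among 2.32% of 13813 genes, a call that rests on the same library. At 2 weeks GAS5 had 3, 6 and 7 footprint counts with actD and 3, 18 and 4 with vehicle, and no gene of 1598 (0%) was called by edgeR, with 8.57% at an unadjusted p under 0.05, or by DESeq2.

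Genes named SNORD, 278 of them listed, were high in the same footprint library. Their summed counts at 72 h were 203, 149 and 21175 with actD and 112, 160 and 399 with vehicle. All snoRNA genes together took 4.13% of the counts of actD replicate 3 and 0.283% to 0.956% of the other 72 h libraries. At 6 h the SNORD sums were 5796, 1746 and 2121 with actD and 3501, 4063 and 1965 with vehicle. GAS5 held 29 to 1478 counts in the 6 h libraries and 2 to 18 in the 72 h and 2-week libraries other than actD replicate 3 of 72 h, as the plot of footprint counts shows. How many GAS5 counts came from its snoRNAs was not tested, since the deposited values are per gene.

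**Figure D5:**
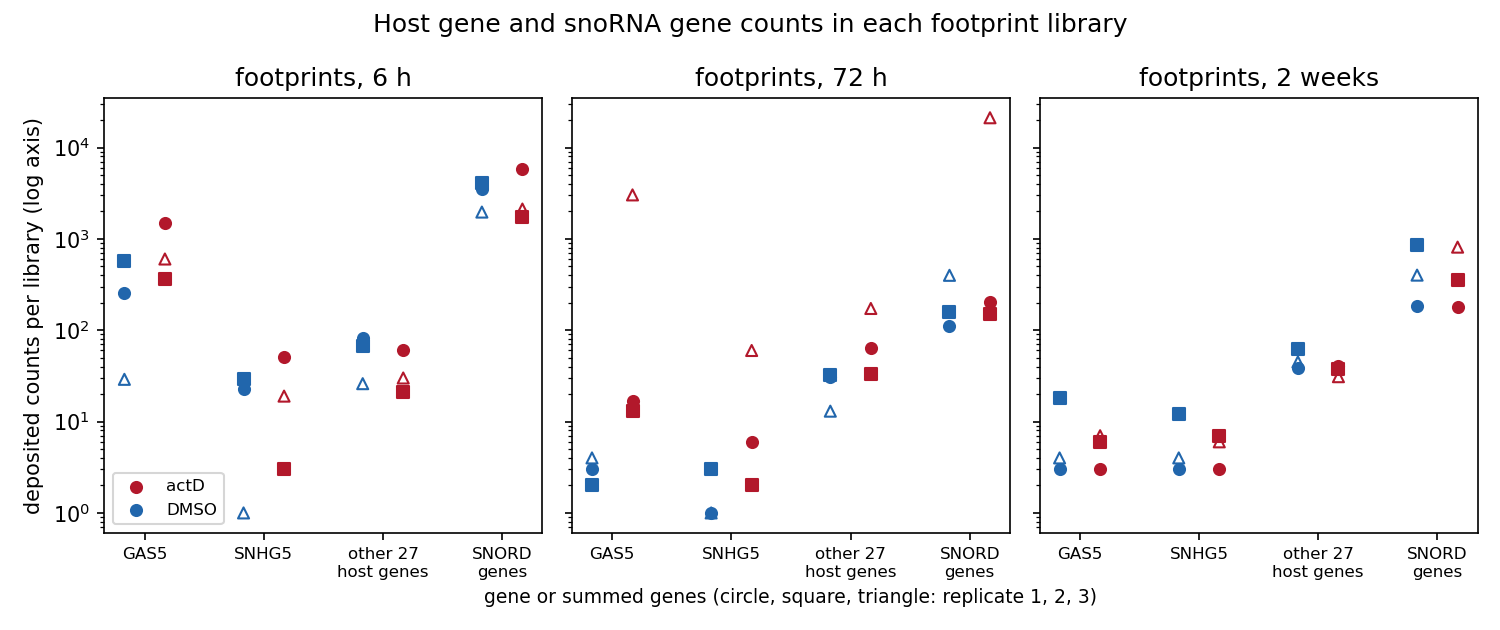
Deposited footprint counts in each library (vertical axis, log axis) for GAS5, SNHG5, the sum of the other 27 host identifiers and the sum of genes named SNORD, at 6 h, 72 h and 2 weeks. At 72 h the red triangle, actD replicate 3, stands apart for GAS5 at 3029 counts and for the SNORD genes at 21175, and less so for SNHG5 at 60.

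SNHG5 was the second host in footprint counts, with 51, 3 and 19 at 6 h with actD and 23, 29 and 1 with vehicle. Its 6 h difference was 1.24 (SE 1.02), with overlapping groups. At 72 h SNHG5 had 6, 2 and 60 counts with actD and 1, 3 and 1 with vehicle, so actD replicate 3 was again the highest, and at 2 weeks 3, 7 and 6 against 3, 12 and 4. The remaining 27 identifiers reached at most 32 counts in any footprint library. Of them, 8 had at least 10 counts in some library, 19 stayed under 10 in every library and 2 of those had none at all. Their sum was 13 to 173 counts per library, the highest again in actD replicate 3 at 72 h. ZFAS1 reached at most 10 footprint counts and SNHG16 at most 17, although both were among the most abundant hosts in RNA.

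Footprints relative to RNA show the same contrast within the family. Summed over the 3 vehicle libraries at 6 h, GAS5 had 557 footprint counts per 10000 RNA counts, SNHG12 64.3, SNHG5 45, SNHG1 32.8, ZFAS1 4.59 and SNHG16 4.35, beside a median of 4.22 over protein-coding genes. In the 72 h vehicle libraries GAS5 was at 3.56, SNHG12 at 86.1 and SNHG1 at 16.6, with a coding median of 9.80. SNHG12 and SNHG1 thus stayed above the coding median at both times while GAS5 did not. DANCR (61.9 and 28.6), SNHG17 (31.9 and 35.4), SNHG19 (49.2 and 73.8) and SNHG18 (13.3 and 20) also stayed above it. Of the GENCODE snoRNA genes in SNHG12 and SNHG1, 4 of 5 and 6 of 7 lie in an annotated exon, so counts for these hosts can include them. In SNHG17 this holds for 1 of 5, and in DANCR, SNHG18 and SNHG19 for none. The part of snoRNAs in exons in these ratios was not tested. These ratios compare counts of the same gene and depend on the depth of the 2 tables. They rest on 17 and 8 footprint counts for SNHG12, 5 and 4 for SNHG19, and 1 at each time for SNHG18.

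Tested as the footprint effect of actD relative to the RNA effect, GAS5 was at 2.38 (SE 0.96, adjusted p = 0.736) at 6 h, among 951 genes with none called (0%, with 5.26% at an unadjusted p under 0.05). At 72 h it was at 7.06 (SE 2.31, adjusted p = 0.208), where 10 of 2311 genes (0.433%) were called and 14.9% reached an unadjusted p under 0.05, and no host was called without actD replicate 3 of the footprints either. SNHG5 was at 1.18 (adjusted p = 0.941) at 6 h. The footprint effect of actD on GAS5 was not called different between times, with a difference of 3.88 (adjusted p = 0.765) for 72 h against 6 h, where 0 of 3012 genes (0%) were called and 6.54% reached an unadjusted p under 0.05. For 2 weeks against 72 h GAS5 was at −6.97 (adjusted p = 0.471), where 2 of 3760 genes (0.0532%) were called and 7.50% reached an unadjusted p under 0.05. With no filter on low counts, 2 hosts, GAS5 and SNHG8, were called in that last test, among 1.27% of 16165 genes. The 72 h effect of GAS5 includes actD replicate 3, with 3029 counts. SNHG8 had at most 13 counts in any footprint library. Summed by group, it had 17 with actD and 0 with vehicle at 72 h, and 2 and 8 at 2 weeks.

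The proteins that build snoRNA particles were compared at 72 h from lists of named genes. All 4 box C/D core proteins lay below 0 in RNA, with a median of −0.40 and with fibrillarin, FBL, at −0.79 (adjusted p = 0.292) and NOP58 at −0.73 (adjusted p = 0.37). The box H/ACA core proteins had a median of −0.07, with the pseudouridine synthase DKC1 at −0.17 and NHP2 at −0.14. The 12 assembly factors had a median of −0.37, with the nucleolar chaperone NOLC1 at −1.03 (adjusted p = 0.263) and the lariat debranching enzyme DBR1 at −0.56 (adjusted p = 0.402), against 0.31 for the host genes. None of these genes was called. The median over all genes tested was 0.02 at 72 h. At 6 h the medians were −0.04 for box C/D, 0.05 for box H/ACA and −0.005 for assembly genes. At 2 weeks they were 0.11, 0.14 and −0.14, by the naming used here. The part of DMSO replicate 3 in the 72 h values was not tested.

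Protein-coding snoRNA hosts with TOP starts lay mostly below 0 in RNA at 72 h. Of 27 such genes, mostly ribosomal protein and translation factor genes, 24 did so, with a median of −0.43 and with RPL3 at −1.41 (adjusted p = 0.19) and EEF2 at −1.57 (adjusted p = 0.233). None was called, and 10 had separate groups in the lower direction, beside 10.3% of all genes. DMSO replicate 3 was also the highest library for their sum, as given above. The 18 nonsense-mediated decay factors had a median of 0.00, with UPF1 at −1.0 (SE 0.42) and PNRC2 at 1.16 (SE 1.54). The 9 regulators of TOP mRNAs had a median of −0.16, with EIF4EBP1 at −0.90 and CNBP at −0.60. No gene of either list was called.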

How the data were processed

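Total RNA and ribosome footprints were taken from 36 libraries in 12 groups of 3. Per the labels' protocols, RNA libraries came from stranded total RNA kits and footprints from a small RNA kit. The labels name 2 RNA extraction kits and 2 RNA library kits without assigning them, so the kits could not be compared. The submitters' processing notes name HISAT2, StringTie and hg38. The annotation, the counting settings, the use of strand and the treatment of multiply mapped reads are not given in the sources used here. The authors deposited 1 table per assay and time, taken as estimated counts per gene. The values were whole numbers already, so rounding changed nothing. In the RNA tables of 6 h and 2 weeks, 44% of the values from 1 to 8 were 3, 6 or 8, against 28.6% in the 72 h RNA table, and the cause was not tested. All 36 value columns were used.

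Identifiers were matched to GENCODE 29 (GRCh38) without version. Start sequences came from a RefSeq promoter table (GRCh38), which held 24 of the host identifiers, and snoRNA positions from GENCODE and RefSeq. Each assay and time was fitted alone with edgeR 4.0.16 (R 4.3.3): TMM, filterByExpr, quasi-likelihood, two-sided, Benjamini-Hochberg over all genes tested, threshold 0.05. Footprints relative to RNA and effects between times were interaction terms. The scripts were tested on simulated data. A count of 0 allows up to 3 counts, which is 0.0434 to 0.0801 CPM in the 72 h RNA libraries and 2.7 to 37.3 CPM in the footprint libraries, for counting error only.

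The members and gene lists were chosen with earlier results of these data known. Values in every library are given for GAS5, ZFAS1, DANCR, EPB41L4A-AS1 and SNHG1, for called hosts, and for up to 4 hosts per assay and time with the largest absolute log2 difference and a mean of at least 50 counts. From each other list the 2 genes with the largest RNA difference at 72 h were named. SNHG3, SNHG7, SNHG10, SCARNA13 and the SNORA73 genes were added after their values were seen. Alternatives were DESeq2 1.42.0 with its size factors, library totals, no filter on low counts, each library left out, a replicate block, 1 fit over the 3 times, the titles of the 2-week RNA libraries, and hosts without a snoRNA in an exon.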

Additional observations from a re-analysis of the deposited data

How the results depend on the processing

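Over all genes, the count called in RNA was 0 at 6 h, 1 at 72 h and 0 at 2 weeks with edgeR, against 204, 605 and 197 with DESeq2 and 1, 1212 and 0 in 1 fit over the 3 times. In footprints at 72 h it was 92, against 7 with library totals and 321 with no filter on low counts. Leaving out 1 library, that count was 0 in 4 of 6 cases, 55 without DMSO replicate 3 and 282 without actD replicate 3. The count of hosts called moved from 0 to 1 (DESeq2) and 2 (1 fit) in RNA at 72 h. With no filter it moved from 0 to 1 in footprints at 72 h and from 0 to 2 for the footprint effect at 2 weeks against 72 h. Leaving out 1 library each, it stayed at 0 in the other comparisons and ranged from 0 to 1 for the RNA effect at 72 h against 6 h. Of the alternatives to host counts and medians, 283 were labelled the same, 20 moved and 1 reversed. A median was labelled the same if it moved by less than the SD of the median host level between libraries of a group. This SD was 0.336 in RNA and 3.04 in footprints at 72 h, so the label allows large shifts. A host count of 0 against 0 was also the same. Reversal of a median was labelled only for the titles of the 2-week RNA libraries, so other medians that crossed 0 are not in that 1. Of the alternatives to single hosts, 285 kept their verdict, 28 reversed and 4 became called. The causes were not tested, except that the medians with no filter cover more hosts.

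The replicate numbers did not meet the limit for pairing, a correlation over 0.1 for every pair of a comparison: the correlations of same-numbered deviations ran from −0.145 to −0.0403 in RNA at 6 h, from 0.0688 to 0.259 at 72 h and from −0.027 to 0.188 at 2 weeks, and in footprints from −0.729 to −0.0601, from −0.0575 to 0.0432 and from −0.0271 to 0.374. Between RNA and footprints they were positive, from 0.00453 to 0.421, and over 0.1 for all 3 pairs of actD at 72 h and of DMSO at 2 weeks, but not for those of the other arm. With the replicate block no host was called, the genes called fell from 92 to 0 in footprints at 72 h and from 10 to 0 relative to RNA, and the host median relative to RNA at 72 h was 3.11.

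Medians of the host differences rest on 1 or 2 genes in footprints and moved most there. With no filter they were −0.27 in footprints at 6 h, 0.71 at 72 h, and relative to RNA 0.041 at 6 h and 0.60 at 72 h. In 1 fit the 72 h footprint median was 1.55. Leaving out each library, they ranged from 0.13 to 2.46 in footprints at 6 h, 1.42 to 6.93 at 72 h, and relative to RNA from −0.13 to 2.58 at 6 h and 1.85 to 7.67 at 72 h. The footprint effect ranged from −1.03 to 2.33 for 72 h against 6 h, and from −2.17 to −0.97 for 2 weeks against 72 h. The restriction to hosts with no snoRNA in an annotated exon left 9 hosts in RNA, none called, and no host in footprints, so it gave no footprint value.

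Taking the titles of the 2-week RNA libraries turns the sign by construction: the host median is then 0.047, DANCR 0.047, EPB41L4A-AS1 −0.041, GAS5 0.015, ZFAS1 0.074, SNHG1 0.12, SNHG12 0.42, SNHG16 0.63, SNHG19 0.55 and SNHG28 −0.68. Differences near 0 also changed sign: in 1 fit ZFAS1 at 6 h was −0.0028 and GAS5 at 2 weeks 0.0073, and with library totals EPB41L4A-AS1 at 2 weeks was −0.11. Leaving out each library, RNA differences crossed 0 at 6 h for ZFAS1 (−0.065 to 0.074), SNHG1 (−0.15 to 0.10), DANCR (−0.021 to 1.06) and GAS5 (−0.022 to 0.12). They did so at 72 h for DANCR (−0.50 to 0.37), GAS5 (−0.89 to 0.46) and ZFAS1 (−0.81 to 0.26), and at 2 weeks for EPB41L4A-AS1 (−0.052 to 0.23), SNHG1 (−0.20 to 0.046) and GAS5 (−0.044 to 0.035). Depth limits the footprint results: 19 hosts stayed under 10 counts in every library.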

Other observations

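The protein-coding snoRNA hosts with TOP starts, which lay mostly below 0 in RNA at 72 h, lay mostly above 0 in footprints at the same time. Of the 23 that passed the filter in footprints at 72 h, 19 lay above 0 and 4 below, with a median of 0.96 against 0.07 over all genes tested. In 11 of them every actD library lay above every DMSO library, as in 19.5% of all genes. None was called by edgeR, and 10 had an unadjusted p under 0.05 in the higher direction, where 27.3% of all genes had one in either direction. Their summed footprints were 6175, 6020 and 12870 CPM with actD and 6164, 8647 and 4652 CPM with DMSO, so the sums overlapped except in actD replicate 3, the library that also stood apart for GAS5. Relative to RNA, 21 lay above 0 and 2 below, with a median of 1.49 against 0.03 over all genes, none called and 12 at an unadjusted p under 0.05, beside 14.9% of all genes. The RNA part of this ratio includes DMSO replicate 3, the RNA library in which these genes were highest. The part of these 2 libraries was not tested.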
